A study of Mus musculus with 9 samples.

Results

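The genes described here are 38 mouse genes of NF-kB signalling and its chemokine and cytokine output, measured by RNA sequencing in the murine breast carcinoma line D2A1-d. They were taken as a list of gene symbols, by a rule with no threshold on measured values, though the list was drawn up with earlier results of these data known: 12 chemokines, 11 cytokines, 4 Rel transcription factors, 8 members of the IkB family and feedback genes, and 3 enzyme and adhesion targets. All 38 were found among the 55335 genes of the count tables, and 28 of them are among the 13611 genes with enough counts to be tested. The cells had been transduced with 1 of 2 short hairpin RNAs against Med1, called shMed1 #2 and shMed1 #4 and both labelled Med1 Knockdown, or with a non-targeting control (NTC) labelled WT. Each group has 3 libraries, numbered as biological replicates. All cells came from that line and grew in the same serum-containing medium, and no group received a stimulus of the pathway per the labels.

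Med1 is part of Mediator, a large complex through which transcription factors on DNA reach RNA polymerase II. NF-kB factors are dimers of Rel proteins that are held in the cytoplasm by IkB proteins. A kinase complex that marks IkB for destruction releases them, and they then enter the nucleus and activate genes of chemokines, cytokines, adhesion molecules and survival factors. Several of their targets, among them Nfkbia and Tnfaip3, encode inhibitors of the same pathway. Chemokines draw leukocytes into tissues, and tumour cells are a known source of them.

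Promoter windows of 5 members are shown as examples of windows with and without the NF-kB motif among members described later: Cxcl1, Cxcl10 and Cxcl12 are chemokines, Bcl3 encodes an IkB protein, and Nfkbia encodes the main IkB protein. Each runs from 250 bases before to 50 bases after the annotated start, 5′ to 3′ on the gene's strand, from RefSeq on GRCm38.p6. Capitals mark matches to the NF-kB consensus motif on either strand. The Cxcl1 window is chr5:90890995-90891294 (+), that of Cxcl10 is chr5:92348840-92349139 (-), that of Cxcl12 is chr6:117168285-117168584 (+), that of Bcl3 is chr7:19822706-19823005 (-), and that of Nfkbia is chr12:55492598-55492897 (-).
Cxcl1: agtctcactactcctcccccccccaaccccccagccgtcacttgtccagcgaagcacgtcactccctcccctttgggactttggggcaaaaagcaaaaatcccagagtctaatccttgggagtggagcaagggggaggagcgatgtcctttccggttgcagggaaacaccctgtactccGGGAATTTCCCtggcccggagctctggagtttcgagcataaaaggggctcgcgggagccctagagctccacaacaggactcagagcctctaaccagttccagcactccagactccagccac
Cxcl10: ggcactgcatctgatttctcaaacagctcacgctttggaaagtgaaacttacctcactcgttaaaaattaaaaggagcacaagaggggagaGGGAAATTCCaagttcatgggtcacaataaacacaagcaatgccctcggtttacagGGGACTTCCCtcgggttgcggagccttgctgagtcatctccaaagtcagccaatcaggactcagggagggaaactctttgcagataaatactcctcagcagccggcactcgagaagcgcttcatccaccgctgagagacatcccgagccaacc
Cxcl12: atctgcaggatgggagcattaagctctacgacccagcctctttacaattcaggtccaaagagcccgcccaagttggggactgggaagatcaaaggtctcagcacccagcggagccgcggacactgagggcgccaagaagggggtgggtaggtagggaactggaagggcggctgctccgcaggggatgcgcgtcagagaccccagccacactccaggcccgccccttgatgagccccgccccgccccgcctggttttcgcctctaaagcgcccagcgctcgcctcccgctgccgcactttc
Bcl3: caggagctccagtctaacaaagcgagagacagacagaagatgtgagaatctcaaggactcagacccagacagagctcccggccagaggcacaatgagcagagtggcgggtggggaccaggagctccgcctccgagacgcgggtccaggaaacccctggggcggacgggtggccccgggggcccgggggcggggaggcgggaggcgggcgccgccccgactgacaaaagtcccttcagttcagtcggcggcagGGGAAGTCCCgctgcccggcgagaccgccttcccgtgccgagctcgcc
Nfkbia: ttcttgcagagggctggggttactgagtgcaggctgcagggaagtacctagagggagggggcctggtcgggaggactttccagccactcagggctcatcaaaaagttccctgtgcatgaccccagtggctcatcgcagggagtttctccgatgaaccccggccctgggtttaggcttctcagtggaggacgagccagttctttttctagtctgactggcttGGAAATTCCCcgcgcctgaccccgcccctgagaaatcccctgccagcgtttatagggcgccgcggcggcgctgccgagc
With the start site as position 0, the Cxcl1 window holds overlapping matches that begin at positions -71 and -70. The Cxcl10 window has matches at -159 and -103, the Nfkbia window has 1 at -29, the Bcl3 window has 1 at position 2, and the Cxcl12 window has none.

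Windows were found for 26 of the 38 members, 33 in all since some genes have several starts. The NF-kB consensus was present in 13 of the 33 windows (39.4%), which belong to 11 members, against 1480 of the 32851 windows in the whole table (4.51%). The AP-1 motif TGANTCA was in 30.3% of the members' windows and 7.81% of all windows. The TATA motif TATAAA was in 30.3% and 13.6%, and the core of the interferon response element was in 3.03% and 3.44%. All motifs were searched on both strands. A match describes letters in a window and does not show binding. The members were listed as genes of NF-kB signalling and its output, so their share of this motif is no independent result. Windows of 1 gene are not independent either, and Nfkb2 holds the motif in several. Cxcl2, Ccl9, Ccl20, Il6, Nfkb2, Nfkbie and Tnfaip3 also hold the NF-kB consensus. Ccl2, Ccl5, Ccl7, Cxcl5, Cxcl16, Il34, Csf3, Tslp, Nfkb1, Nfkbiz, Relb and Vcam1 have no entry in the table used.

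Library totals were 8123918 to 8879982 counts. Values are given as CPM, in which counts are divided by the scaled size of their library, and a count of 3 is worth 0.338 to 0.369 CPM. Med1 had 22.1, 25.2 and 24.7 CPM in shMed1 #2 and 25, 26.6 and 25.5 CPM in shMed1 #4, against 85.6, 87.5 and 79.8 CPM in NTC. Its log2 fold change was -1.81 with shMed1 #2 (SE 0.0746, adjusted p = 5.67e-36) and -1.71 with shMed1 #4 (SE 0.0739, adjusted p = 6.39e-34). Several leukocyte genes were at or near 0: Cd3e, Cd3d, Itgam, Itgax, Adgre1, Tyrobp and Ly6g had 0 counts in all 9 libraries, and Ptprc had at most 2. Other leukocyte markers were not: Cd14 had 346 to 592 counts per library, Csf1r 90 to 135 and Cd68 16 to 27. The epithelial genes Epcam and Krt5 had 0 counts throughout and Cdh1 at most 2, while Krt8 and Krt18 and 11 of 12 mesenchymal markers passed the filter on low counts. The labels do not say whether replicates came from separate cultures, so p-values measure the spread between these libraries, which may be technical. In such bulk RNA, fewer cells that express a gene and less RNA per cell cannot be told apart.

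Most chemokine genes that could be measured were lower after transduction with either hairpin. Of 28 tested members, 17 were lower and 1 was higher with shMed1 #2 against NTC at an adjusted p under 0.05 (edgeR quasi-likelihood test, adjusted over all genes tested). Over all 13611 genes, 21.9% were lower and 21.8% were higher in that comparison. With shMed1 #4 against NTC, 14 members were lower and 1 was higher, beside 14.1% lower and 14.0% higher over all genes. The median log2 fold change of the tested members was -0.42 with shMed1 #2 and -0.37 with shMed1 #4, beside -0.00 and 0.00 for all genes. The NTC libraries enter both comparisons. Since 4 tested members (Ccl5, Cxcl2, Cxcl12 and Birc3) did not reach the filter's minimum of 1.16 CPM in every library and 10 members were left out, these counts describe the measurable members and not all 38. The filter needs 3 libraries at that minimum. Cxcl12 reached it in 0 shMed1 #2, 1 shMed1 #4 and 3 NTC libraries, and Cxcl2 in 1, 1 and 3. Both were thus tested only through NTC, where they are highest, so their direction is in part set by the filter.

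**Figure D1:**
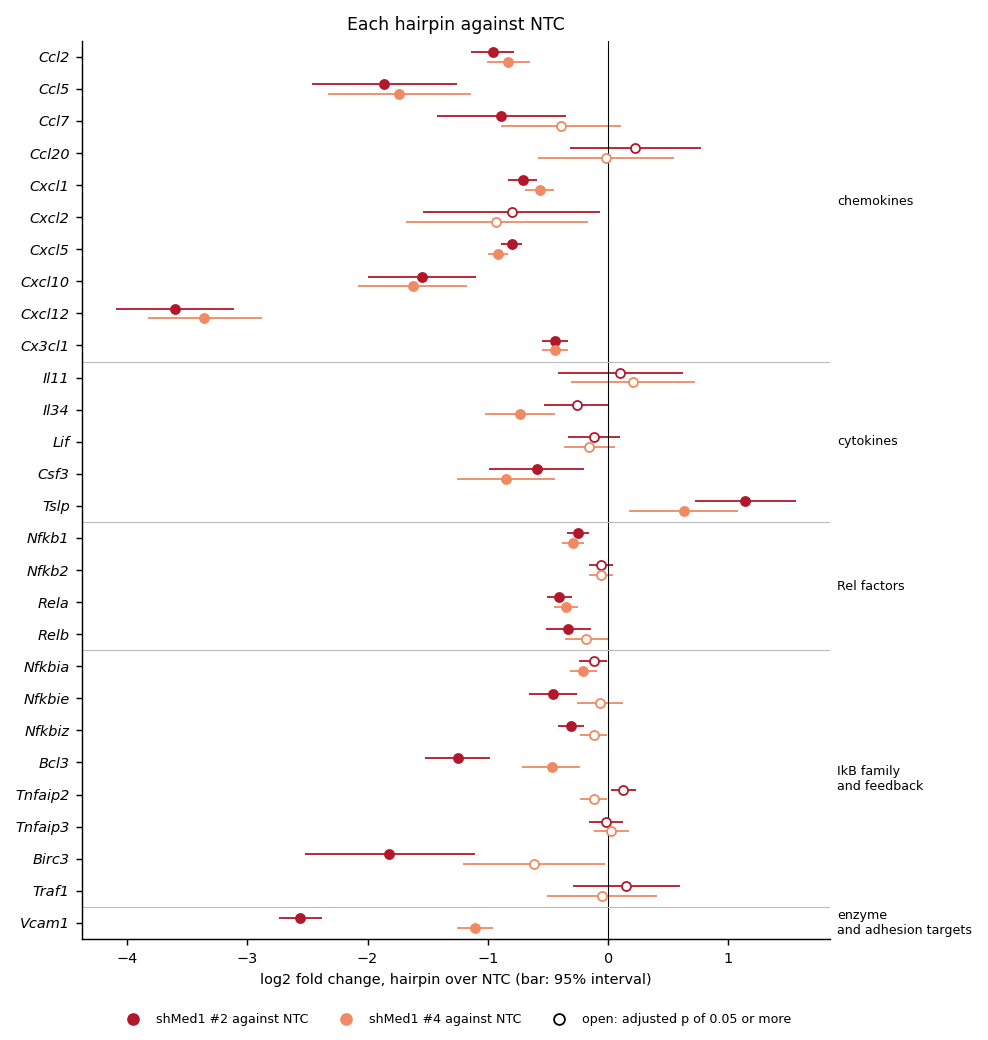
Log2 fold change of the 28 tested members with each hairpin over NTC (x axis), grouped by role, with 95% intervals; filled points have an adjusted p under 0.05 and open points do not. Chemokines reach the lowest values, down to -3.60 for Cxcl12 with shMed1 #2, and Tslp is the only filled pair above 0.

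Among the 10 tested chemokines, 8 were lower and 0 higher with shMed1 #2, and 7 were lower and 0 higher with shMed1 #4, with medians of -0.84 and -0.87. Of all genes, 21.9% were lower with shMed1 #2 and 14.1% with shMed1 #4. Cxcl12, which encodes the ligand of the receptors CXCR4 and ACKR3, had the lowest fold changes among the members. It had 0.92, 0.697 and 1.15 CPM in shMed1 #2 and 1.05, 0.722 and 1.51 CPM in shMed1 #4, against 11.6, 12.2 and 10.3 CPM in NTC. Every library of either hairpin lay far below every NTC library. Against NTC this gave a log2 fold change of -3.60 with shMed1 #2 (SE 0.248, adjusted p = 2.99e-22) and -3.36 with shMed1 #4 (SE 0.24, adjusted p = 9.01e-21). In counts, the hairpin libraries held 6 to 13 Cxcl12 reads and the NTC libraries 89 to 101. Cxcl12 passed the filter on low counts only through its NTC level.

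Cxcl10 and Ccl5 encode chemokines that attract T cells. Cxcl10 had 1.84, 2.44 and 2.65 CPM in shMed1 #2 and 1.86, 2.17 and 2.55 CPM in shMed1 #4, against 6.67, 6.03 and 7.64 CPM in NTC. The groups with a Med1 hairpin did not overlap with NTC and overlapped with each other. Relative to NTC it fell by a log2 fold change of -1.55 with shMed1 #2 (SE 0.226, adjusted p = 1.44e-08) and -1.62 with shMed1 #4 (SE 0.229, adjusted p = 1.42e-08). The exons of Cxcl10 share 133 bases with Art3 on the opposite strand, and whether reads were counted by strand is not stated. Art3 had 35 counts over all 9 libraries. Ccl5 had 0.92, 1.16 and 1.27 CPM in shMed1 #2 and 1.51, 1.2 and 0.927 CPM in shMed1 #4, against 3.39, 4.46 and 4.4 CPM in NTC. All hairpin libraries were again below all NTC libraries, with 8 to 13 counts each where NTC had 28 to 38. The log2 fold change of Ccl5 was -1.86 with shMed1 #2 (SE 0.303, adjusted p = 2.75e-07) and -1.74 with shMed1 #4 (SE 0.299, adjusted p = 2.06e-06).

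The neutrophil chemokines Cxcl5, Cxcl1 and Cxcl2 lie with Cxcl3 within 147 kb of chromosome 5 (90759360 to 90905938, GRCm38) and encode ligands of CXCR2. Cxcl5 had 252, 236 and 265 CPM in shMed1 #2 and 239, 226 and 230 CPM in shMed1 #4, against 438, 430 and 443 CPM in NTC. The hairpin libraries were all below NTC, and the spread within each group was small beside that gap. Cxcl5 fell by a log2 fold change of -0.80 with shMed1 #2 (SE 0.0429, adjusted p = 1.35e-28) and -0.92 with shMed1 #4 (SE 0.0432, adjusted p = 1.76e-31). Cxcl1 had 60.9, 58.4 and 70 CPM in shMed1 #2 and 71.3, 69.8 and 66.8 CPM in shMed1 #4, against 108, 98.7 and 102 CPM in NTC. Here too no hairpin library reached the NTC range. This was a log2 fold change of -0.71 with shMed1 #2 (SE 0.0606, adjusted p = 2.43e-17) and -0.57 with shMed1 #4 (SE 0.0599, adjusted p = 5.3e-13). Cxcl2 was near the limit of counting, with means of 1.15 ± 0.413 CPM in shMed1 #2, 1.05 ± 0.716 CPM in shMed1 #4 and 2.03 ± 0.437 CPM in NTC (SD, n = 3 each). It did not pass the test: the log2 difference was -0.80 with shMed1 #2 (95% interval -1.54 to -0.07, adjusted p = 0.0705) and -0.93 with shMed1 #4 (-1.68 to -0.17, adjusted p = 0.0567). Of its 50-base words, 5.84% also occur in another gene, chiefly Cxcl3, so reads may be unequally assigned between Cxcl2 and Cxcl3.

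Ccl2 and Ccl7 encode monocyte chemokines and lie side by side on chromosome 11 (82035571 to 82047525). Ccl2 had 21.8, 19.9 and 18.9 CPM in shMed1 #2 and 21.9, 21.9 and 22.5 CPM in shMed1 #4, against 40.5, 40.1 and 37.2 CPM in NTC. The hairpin libraries formed a narrow band well under NTC. Ccl2 fell by a log2 fold change of -0.96 with shMed1 #2 (SE 0.0902, adjusted p = 1.99e-15) and -0.83 with shMed1 #4 (SE 0.0891, adjusted p = 1.54e-12). Ccl7 had 1.72, 2.44 and 2.07 CPM in shMed1 #2 and 2.79, 2.05 and 3.94 CPM in shMed1 #4, against 4.36, 2.89 and 4.28 CPM in NTC. Libraries of shMed1 #2 stayed below NTC, while those of shMed1 #4 overlapped with it. Ccl7 fell with shMed1 #2, by a log2 fold change of -0.89 (SE 0.271, adjusted p = 0.00505), and the log2 difference with shMed1 #4 was -0.39 (95% interval -0.89 to 0.11, adjusted p = 0.265).

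Cx3cl1, whose membrane-bound chemokine binds CX3CR1, fell to 75 ± 1.52 CPM in shMed1 #2 and 74.9 ± 0.874 CPM in shMed1 #4, against 101 ± 2.98 CPM in NTC (SD, n = 3 each). Its log2 fold change was -0.44 with shMed1 #2 (adjusted p = 2.92e-10) and -0.44 with shMed1 #4 (adjusted p = 7.21e-10). Ccl20, the ligand of CCR6, was not called: it averaged 2.92 ± 0.138 CPM in shMed1 #2, 2.47 ± 0.577 CPM in shMed1 #4 and 2.51 ± 0.641 CPM in NTC. The 95% interval of its log2 difference ran from -0.32 to 0.77 with shMed1 #2 and from -0.58 to 0.55 with shMed1 #4. Ccl9 and Cxcl16 were not tested. Ccl9 summed to 18 counts over the 3 shMed1 #2 libraries, 23 over shMed1 #4 and 30 over NTC. Cxcl16 summed to 5 counts over shMed1 #2, 10 over shMed1 #4 and 15 over NTC. Summed leukocyte markers ran from 58.3 to 62.5 CPM in shMed1 #2, from 68.2 to 74.7 CPM in shMed1 #4 and from 76.8 to 89.5 CPM in NTC. They came almost wholly from Cd14 and Csf1r, while 8 of the 18 markers were at 0 in all libraries. Cd14 fell with shMed1 #2 (log2 fold change -0.56, adjusted p = 2.58e-10) and with shMed1 #4 (-0.19, adjusted p = 0.0268), and Csf1r was not called.

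**Figure D2:**
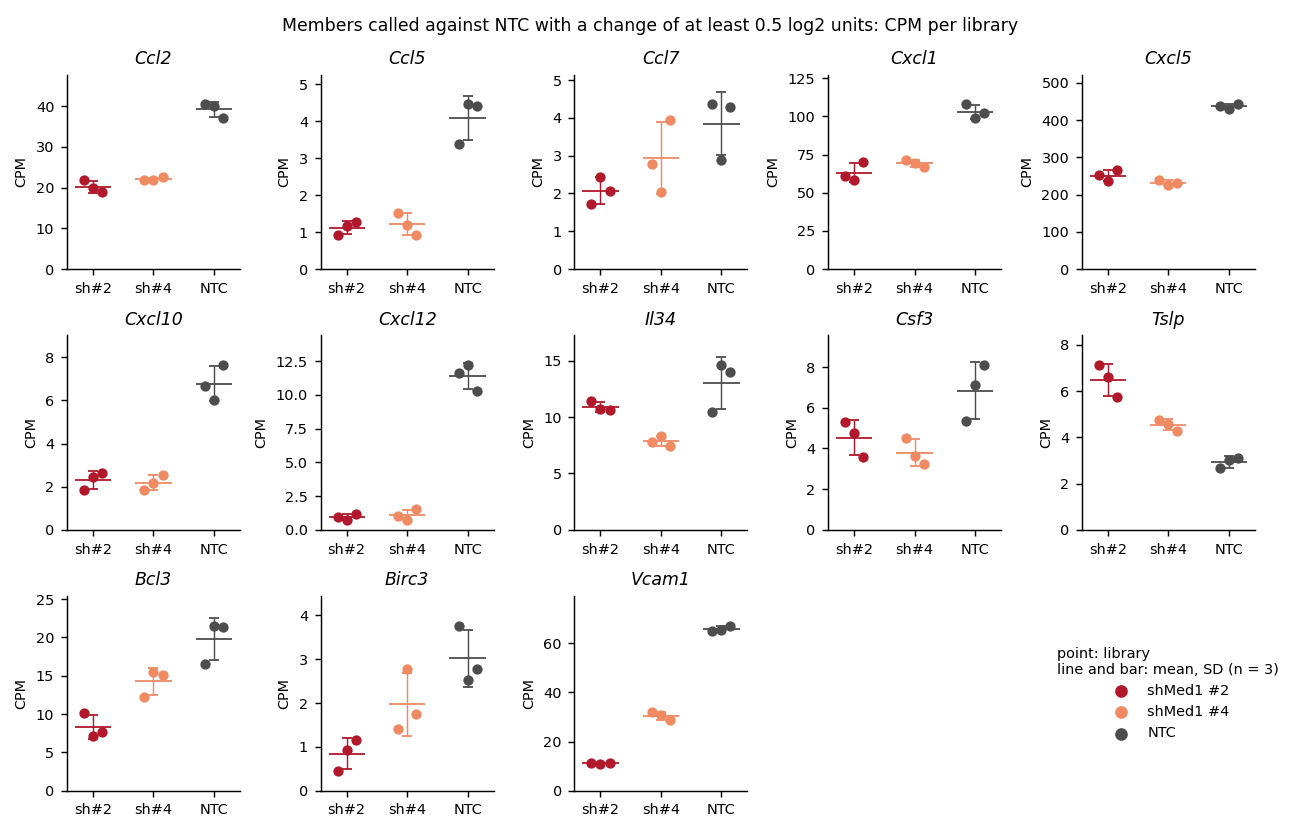
CPM per library (y axis, a separate scale per gene) in shMed1 #2, shMed1 #4 and NTC for the 13 members called with at least 1 hairpin at an absolute log2 fold change of at least 0.5; lines and bars are the mean and SD of 3 libraries. Vcam1 averages 11.1, 30.5 and 65.8 CPM in shMed1 #2, shMed1 #4 and NTC, and Tslp is the only panel in which NTC is lowest.

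Of the 11 cytokine genes, 5 could be tested, with 1 lower and 1 higher with shMed1 #2 and 2 lower and 1 higher with shMed1 #4 (medians -0.12 and -0.16). Shares over all genes were 21.9% lower and 21.8% higher with shMed1 #2, and 14.1% lower and 14.0% higher with shMed1 #4. The cytokine counts with shMed1 #2 were near these shares. The 1 member that rose in these comparisons was Tslp, which encodes thymic stromal lymphopoietin, an epithelial cytokine that acts on dendritic cells and other immune cells. It had 7.13, 6.62 and 5.76 CPM in shMed1 #2 and 4.77, 4.57 and 4.29 CPM in shMed1 #4, against 2.67, 3.01 and 3.13 CPM in NTC. The 3 groups did not overlap, with shMed1 #2 highest. Tslp rose by a log2 fold change of 1.14 with shMed1 #2 (SE 0.211, adjusted p = 4.51e-06) and 0.63 with shMed1 #4 (SE 0.227, adjusted p = 0.0292). The call with shMed1 #4 was lost under 6 of the alternatives tried: in DESeq2 (adjusted p = 0.0914), with no filter (0.0582), without NTC replicate 1 (0.102) or 2 (0.0581), and without shMed1 #4 replicate 1 (0.0847) or 2 (0.0617).

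Csf3 encodes the granulocyte growth factor G-CSF. It had 5.29, 4.76 and 3.57 CPM in shMed1 #2 and 4.54, 3.61 and 3.25 CPM in shMed1 #4, against 5.33, 7.11 and 8.1 CPM in NTC. Both hairpins lay below NTC, though the highest shMed1 #2 library came close to the lowest NTC library. Csf3 fell by a log2 fold change of -0.59 with shMed1 #2 (SE 0.197, adjusted p = 0.0101) and -0.85 with shMed1 #4 (SE 0.205, adjusted p = 0.000704). With shMed1 #2 it did not pass in DESeq2 (adjusted p = 0.0529), without NTC replicate 3 (0.103) or without shMed1 #2 replicate 3 (0.0898). Il34, which encodes an alternative ligand of the CSF1 receptor, had 11.4, 10.7 and 10.6 CPM in shMed1 #2 and 7.8, 8.3 and 7.42 CPM in shMed1 #4, against 10.4, 14.6 and 14 CPM in NTC. The shMed1 #4 libraries were below all others, and those of shMed1 #2 overlapped with NTC. Il34 fell with shMed1 #4 (log2 fold change -0.73, SE 0.146, adjusted p = 3.75e-05), and its log2 difference with shMed1 #2 was -0.26 (SE 0.136, adjusted p = 0.12). Without NTC replicate 1 the shMed1 #2 comparison passed, at -0.39 (adjusted p = 0.0267).

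Lif and Il11, cytokines of the interleukin 6 family, were not called with either hairpin. Lif averaged 18.4 ± 2.4 CPM in shMed1 #2, 17.9 ± 0.846 CPM in shMed1 #4 and 20 ± 0.971 CPM in NTC. Il11 averaged 3.23 ± 0.802 CPM in shMed1 #2, 3.49 ± 0.884 CPM in shMed1 #4 and 3.02 ± 0.968 CPM in NTC (SD, n = 3 each). The 6 untested cytokine genes were at the floor of detection. Il6 and Il1a had at most 6 and 5 counts in any library, Il33, Csf2 and Tnf had at most 2, and Il1rn had 0 in all 9 libraries. No difference between groups in these 6 genes was detectable at this depth.

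Of the 4 Rel factor genes, 3 were lower with shMed1 #2 and 2 with shMed1 #4, and 0 were higher, each by less than 0.5 on the log2 scale (medians -0.29 and -0.24). Beside this, 21.9% of all genes were lower with shMed1 #2 and 14.1% with shMed1 #4. Rela, which encodes the transactivating p65 subunit, fell to 98.6 ± 1.07 CPM in shMed1 #2 and 103 ± 3 CPM in shMed1 #4, against 131 ± 4.34 CPM in NTC (SD, n = 3 each). Its log2 fold change was -0.41 with shMed1 #2 (SE 0.0514, adjusted p = 1.79e-10) and -0.35 with shMed1 #4 (SE 0.0512, adjusted p = 4.24e-08). Nfkb1, the gene of the p105 precursor of p50, averaged 190 ± 7.63 CPM in shMed1 #2, 184 ± 5.26 CPM in shMed1 #4 and 225 ± 2.05 CPM in NTC. It fell by a log2 fold change of -0.25 with shMed1 #2 (adjusted p = 2.68e-06) and -0.29 with shMed1 #4 (adjusted p = 1.43e-07). Relb, which acts in the noncanonical branch, fell with shMed1 #2 by a log2 fold change of -0.33 (adjusted p = 0.00258), and the difference with shMed1 #4 was -0.18 (adjusted p = 0.147). Its call with shMed1 #2 was lost without NTC replicate 2 (adjusted p = 0.0777). Nfkb2, the gene of the p100 precursor of p52, was not called, with means of 117, 117 and 122 CPM in shMed1 #2, shMed1 #4 and NTC. The 95% interval of its log2 difference was -0.16 to 0.04 with each hairpin.

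In the IkB family and feedback group, 4 of 8 genes were lower with shMed1 #2 and 2 of 8 with shMed1 #4, and 0 were higher. The shares of all genes that were lower were 21.9% with shMed1 #2 and 14.1% with shMed1 #4. Bcl3, which encodes a nuclear IkB protein that binds p50 and p52, had 10.1, 7.2 and 7.61 CPM in shMed1 #2 and 12.2, 15.5 and 15.1 CPM in shMed1 #4, against 16.6, 21.5 and 21.3 CPM in NTC. The 3 groups did not overlap and shMed1 #4 lay in the middle. The log2 fold change was -1.25 with shMed1 #2 (SE 0.135, adjusted p = 8.59e-13) and -0.47 with shMed1 #4 (SE 0.122, adjusted p = 0.00165). Birc3 encodes cIAP2, a ubiquitin ligase of tumour necrosis factor receptor complexes. It had 0.46, 0.929 and 1.15 CPM in shMed1 #2 and 1.4, 2.77 and 1.74 CPM in shMed1 #4, against 3.76, 2.53 and 2.78 CPM in NTC. Libraries of shMed1 #2 were below all others, at 4 to 10 counts each. Birc3 fell with shMed1 #2 (log2 fold change -1.82, SE 0.355, adjusted p = 1.29e-05), and its log2 difference with shMed1 #4 was -0.62 (SE 0.297, adjusted p = 0.114). Without shMed1 #4 replicate 2, that difference was -0.94 and passed (adjusted p = 0.0379).

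Nfkbia, the IkB alpha gene and a classical feedback target, averaged 79.8 ± 1.54 CPM in shMed1 #2, 75.2 ± 0.451 CPM in shMed1 #4 and 86.9 ± 3.88 CPM in NTC (SD, n = 3 each). It fell with shMed1 #4 by a log2 fold change of -0.21 (adjusted p = 0.00345), and the difference with shMed1 #2 was -0.12 (adjusted p = 0.0725). Nfkbie, which encodes IkB epsilon, fell with shMed1 #2 by -0.46 (adjusted p = 7.07e-05), and the difference with shMed1 #4 was -0.07 (adjusted p = 0.638). Nfkbiz, which encodes the nuclear IkB zeta, fell with shMed1 #2 by -0.31 (adjusted p = 3.24e-06), and the difference with shMed1 #4 was -0.12 (adjusted p = 0.0994). Tnfaip3, which encodes the deubiquitinase A20, averaged 47.6 ± 1.73 CPM in shMed1 #2, 49 ± 2.29 CPM in shMed1 #4 and 48.2 ± 3.06 CPM in NTC. The 95% interval of its log2 difference was -0.16 to 0.12 with shMed1 #2 and -0.12 to 0.17 with shMed1 #4. Traf1, an adaptor of these receptor complexes, was not called either, at 4.46 ± 0.703, 3.87 ± 0.95 and 4.03 ± 1.04 CPM in shMed1 #2, shMed1 #4 and NTC. Tnfaip2, a gene induced by tumour necrosis factor, had a log2 difference of 0.12 with shMed1 #2 (adjusted p = 0.0523) and -0.12 with shMed1 #4 (adjusted p = 0.0845).

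Vcam1 encodes the adhesion receptor for the integrin VLA-4 and had the smallest p of any member with shMed1 #2. It had 11.3, 10.9 and 11.2 CPM in shMed1 #2 and 31.9, 30.9 and 28.8 CPM in shMed1 #4, against 65, 65.3 and 67 CPM in NTC. The 3 groups formed separate steps. Vcam1 fell by a log2 fold change of -2.56 with shMed1 #2 (SE 0.09, adjusted p = 3.04e-40) and -1.11 with shMed1 #4 (SE 0.0749, adjusted p = 4.27e-22), a decrease of 5.91-fold and 2.16-fold. Ptgs2, the cyclooxygenase 2 gene, and Icam1, another adhesion receptor, had at most 2 and 4 counts in any library and were not tested. Summed over its 3 libraries, Icam1 had 2 counts in shMed1 #2, 1 in shMed1 #4 and 8 in NTC. Values of some other members may include reads of overlapping genes on the opposite strand: Nfkb2 shares 531 exon bases with AC114539.1 and 299 with Psd, Tnfaip2 shares 314 with Gm40578, Bcl3 shares 161 with Gm16175, Il34 shares 75 with Gm15895 (3 counts over all libraries) and 22 with Gm15894 (223 counts), and Vcam1 shares 61 of its 8870 with Gm43109. Of the 50-base words of Birc3, 7.56% also occur in another gene, chiefly Gm7019.

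Levels were compared between genes per kilobase of exon (CPM per kb). Among the 28 tested members the highest in NTC was Cxcl5, at 235 ± 3.52 CPM per kb, followed by Cxcl1 at 55 ± 2.57, Nfkbia at 54 ± 2.41 and Rela at 42.6 ± 1.41 CPM per kb (SD, n = 3 each). Cxcl1 and Nfkbia did not differ beyond their spread in NTC, while in shMed1 #2 Cxcl1 stood at 33.7 ± 3.24 and Nfkbia at 49.5 ± 0.958 CPM per kb, and in shMed1 #4 at 37 ± 1.24 and 46.7 ± 0.28 CPM per kb. Ccl2 was next in NTC at 34.5 ± 1.6 CPM per kb. It stood at 17.7 ± 1.32 CPM per kb in shMed1 #2 and 19.4 ± 0.304 CPM per kb in shMed1 #4. At the low end of the 28 tested members in NTC were Cxcl12 at 1.39 ± 0.118, Cxcl2 at 0.981 ± 0.211, Birc3 at 0.603 ± 0.129 and Traf1 at 0.457 ± 0.118 CPM per kb. Cxcl12 was thus among the least abundant tested chemokines per length in NTC, and Cxcl5 had the highest mean per length of the tested members in every group. The place of Cxcl12 depends on the length used, which is that of all its annotated exons merged (8176 bases). In CPM without length it averaged 11.4 in NTC. This was above Cxcl10, Ccl5, Ccl7, Ccl20 and Cxcl2 and below Ccl2, Cx3cl1, Cxcl1 and Cxcl5.

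**Figure D3:**
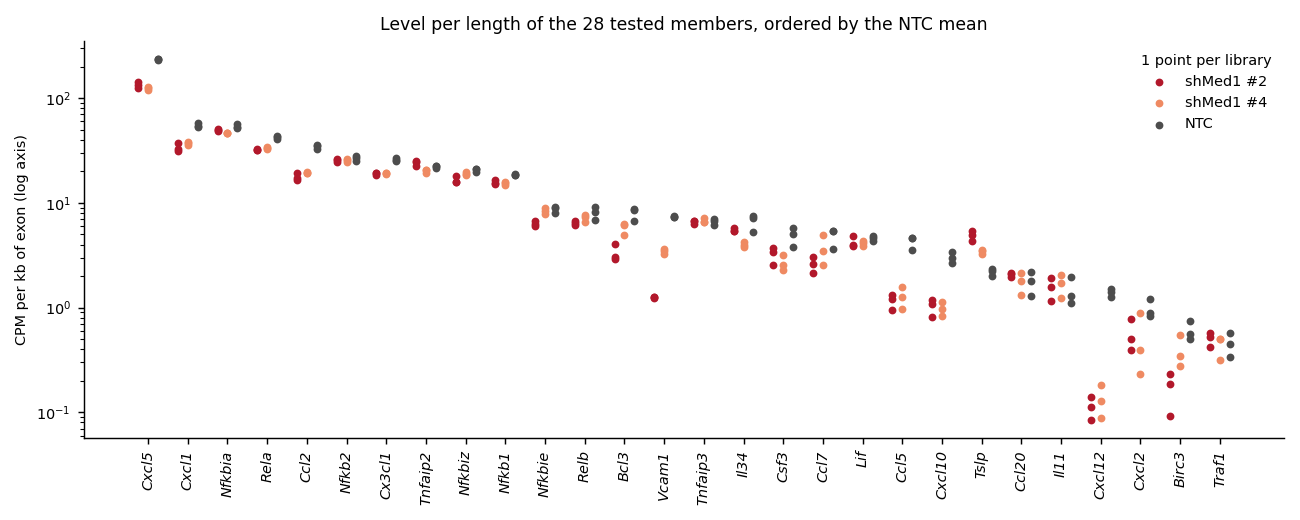
CPM per kb of exon on a log axis for the 28 tested members, in 3 libraries each of shMed1 #2, shMed1 #4 and NTC, ordered from left to right by the NTC mean. Cxcl5 is highest at 235 CPM per kb in NTC, and the Cxcl12 points of the hairpin libraries fall below 0.2 CPM per kb where NTC stands at 1.39.

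A direct comparison of the hairpins asked where they differ. With shMed1 #4 against shMed1 #2, 4 of 28 tested members were lower and 5 were higher, beside 13.1% lower and 12.9% higher over all genes. The median log2 fold change was 0.02 over the members and 0.01 over all genes. Of the 10 chemokines, 1 was called. Of the 8 IkB family and feedback genes, 1 was lower and 4 were higher, and of the 5 cytokines 2 were lower. Vcam1 was higher with shMed1 #4 than with shMed1 #2 by a log2 fold change of 1.46 (SE 0.102, adjusted p = 3.98e-21). Bcl3 was higher with shMed1 #4 by 0.78 (SE 0.143, adjusted p = 1.09e-05), Birc3 by 1.20 (SE 0.388, adjusted p = 0.0146), Nfkbie by 0.39 (SE 0.0996, adjusted p = 0.00156) and Nfkbiz by 0.19 (SE 0.0567, adjusted p = 0.00778). Lower with shMed1 #4 were Il34, by a log2 fold change of -0.47 (SE 0.15, adjusted p = 0.0121), Tslp by -0.52 (SE 0.192, adjusted p = 0.0374), Tnfaip2 by -0.24 (SE 0.0529, adjusted p = 0.000201) and Cxcl5 by -0.11 (SE 0.0444, adjusted p = 0.0461).

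For the chemokines the hairpins were not told apart, except in Cxcl5. The interval of the log2 difference, shMed1 #4 minus shMed1 #2, was narrow for Ccl2 (0.13, 95% interval -0.07 to 0.33), Cxcl1 (0.14, 0.01 to 0.26, adjusted p = 0.111) and Cx3cl1 (-0.00, -0.12 to 0.11). It was wide for the genes with few counts: Cxcl12 (0.24, -0.57 to 1.06), Ccl5 (0.12, -0.66 to 0.90), Cxcl10 (-0.07, -0.64 to 0.49) and Ccl7 (0.50, -0.07 to 1.06). Differences of that size in these 4 genes were not detectable at this depth. Med1 itself stood at 25.7 CPM in shMed1 #4 and 24 CPM in shMed1 #2 on average, a log2 difference of 0.10 (95% interval -0.08 to 0.28, adjusted p = 0.461). Some of these calls rest on few libraries. That of Birc3 was lost without shMed1 #2 replicate 1 (adjusted p = 0.105) and without shMed1 #4 replicate 2 (0.149), and that of Nfkbiz without shMed1 #2 replicate 2 (0.0623), shMed1 #2 replicate 3 (0.0604) or shMed1 #4 replicate 1 (0.0531). The Cxcl5 call was lost under 14 alternatives, among them those without NTC replicate 1 (adjusted p = 0.0512), NTC replicate 2 (0.0545), shMed1 #2 replicate 1 (0.1), shMed1 #2 replicate 3 (0.324), shMed1 #4 replicate 2 (0.135) and shMed1 #4 replicate 3 (0.0864). The Tslp call was lost under 7, among them those without shMed1 #2 replicate 1 (0.136), shMed1 #2 replicate 2 (0.0864), or shMed1 #4 replicate 1 (0.0592), 2 (0.0677) or 3 (0.107). In DESeq2 neither Il34 (0.0506) nor Birc3 (0.0543) passed. Cxcl1 passed without shMed1 #2 replicate 3, with a log2 fold change of 0.22 (adjusted p = 0.0183).

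**Figure D4:**
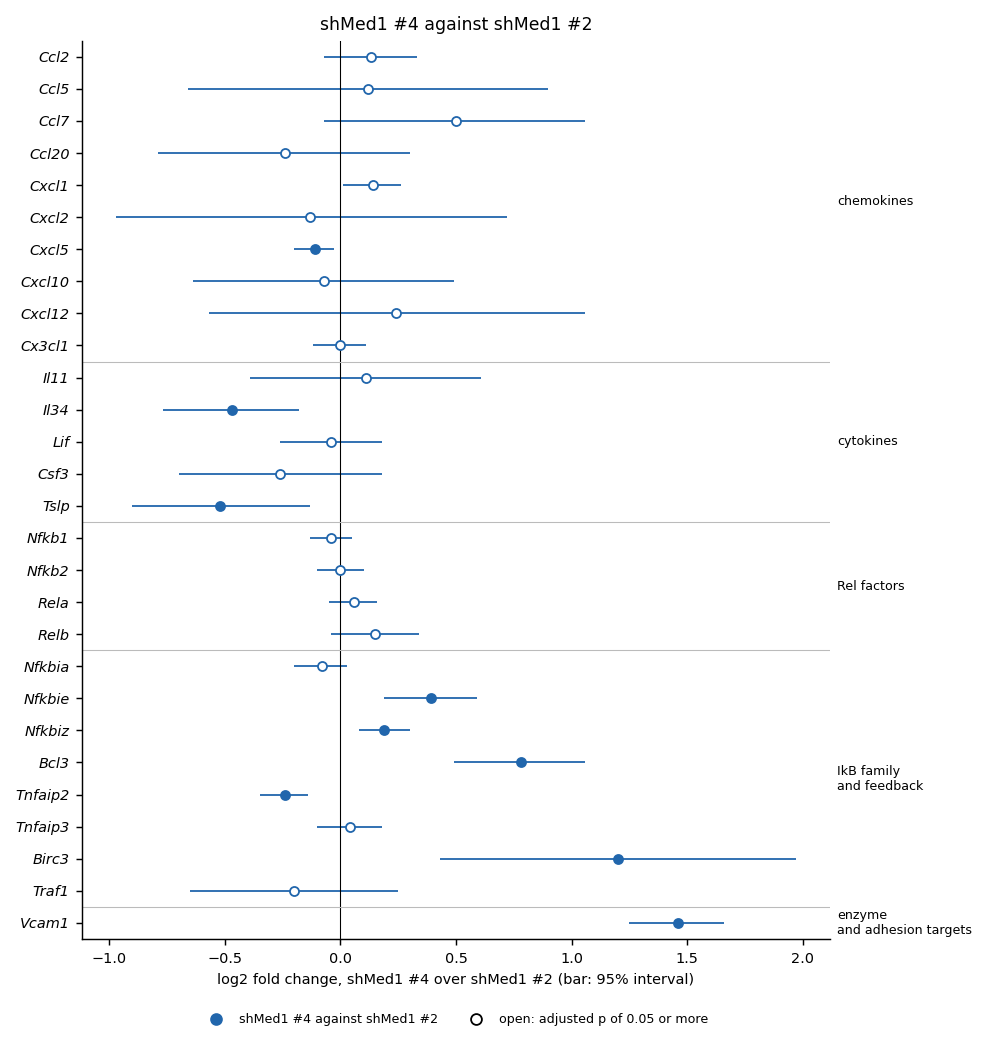
Log2 fold change of the 28 tested members with shMed1 #4 over shMed1 #2 (x axis), grouped by role, with 95% intervals; filled points have an adjusted p under 0.05. Vcam1 (1.46), Birc3 (1.20) and Bcl3 (0.78) lie to the right, and most chemokine intervals include 0.

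Markers of cell state differed between the same groups. The summed epithelial markers, nearly all Krt8 and Krt18 (2 of 8 tested, Epcam and Krt5 at 0), ranged from 19.9 to 22.8 CPM in shMed1 #2, from 41.6 to 52.1 CPM in shMed1 #4 and from 56.9 to 58.6 CPM in NTC, the same order as Vcam1 and Bcl3. The summed mesenchymal markers (11 of 12 tested, with Col3a1 at most 1 count in a library) ranged from 6009 to 6204 CPM in shMed1 #2, from 6259 to 6513 CPM in shMed1 #4 and from 5188 to 5323 CPM in NTC. These markers did not move together: 3 were higher and 6 lower with shMed1 #2, and 4 were higher and 3 lower with shMed1 #4 (median log2 fold changes of -0.13 and -0.08). Over all genes, 21.8% were higher and 21.9% lower with shMed1 #2, and 14.0% were higher and 14.1% lower with shMed1 #4. Vim, Fn1 and Sparc make up much of the sum. Vim and Sparc rose with shMed1 #2 (log2 fold changes of 0.57 and 0.63), while Col1a1 (-1.61), Col1a2 (-1.45), Pdgfrb (-1.36) and Pdgfra (-0.71) fell with it. Fn1, the highest of these markers in NTC at 2216 CPM, fell with shMed1 #2 (-0.20) and rose with shMed1 #4 (0.11). The part of either in the results on the members was not tested.

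The members were set beside 6 other lists of the pathway, whose counts are to be read against the share of all genes called: 21.9% lower and 21.8% higher with shMed1 #2, and 14.1% lower and 14.0% higher with shMed1 #4. Among other chemokines, 3 of 21 were tested (medians of the 3 genes -0.14 with shMed1 #2 and -0.02 with shMed1 #4). The 1 called with shMed1 #2 and the 1 called with shMed1 #4 was Cxcl3, which lies between Cxcl5 and Cxcl1. It had 6.32, 5.92 and 5.88 CPM in shMed1 #2 and 7.33, 5.78 and 10.7 CPM in shMed1 #4, against 28.8, 31.2 and 32 CPM in NTC. Its log2 fold change was -2.34 with shMed1 #2 (adjusted p = 5.04e-26) and -1.95 with shMed1 #4 (adjusted p = 3e-22). Within the chromosome 5 cluster, Cxcl3 thus stood several-fold below NTC where Cxcl1 and Cxcl5 were below it by less than a factor of 2. Among other cytokines (12 of 37 tested), 5 were lower and 2 higher with shMed1 #2, and 4 were lower and 2 higher with shMed1 #4 (medians -0.14 and -0.24). Il7, a lymphocyte growth factor, fell with shMed1 #2 (log2 fold change -0.85, adjusted p = 3.6e-12) and with shMed1 #4 (-0.45, adjusted p = 5.69e-05). Kitl, which encodes stem cell factor, rose with shMed1 #2 (0.72, adjusted p = 2.72e-11) and with shMed1 #4 (0.45, adjusted p = 3.4e-05).

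Of the receptors (26 of 44 tested), 10 were lower and 4 higher with shMed1 #2, and 9 were lower and 7 higher with shMed1 #4, with a median of -0.15 in each comparison. Ackr3, the scavenging receptor of CXCL12, fell with shMed1 #2 (-1.21, adjusted p = 7.4e-15) and with shMed1 #4 (-0.93, adjusted p = 1.6e-10). Fas, a death receptor, fell with shMed1 #2 (-0.76, adjusted p = 7.34e-07) and with shMed1 #4 (-0.75, adjusted p = 2.22e-06). The flagellin receptor gene Tlr5 fell with shMed1 #2 (-0.64, adjusted p = 0.00811) and with shMed1 #4 (-0.60, adjusted p = 0.0206). Of the steps from receptors to IkB kinase (32 of 33 tested), 5 were lower and 8 higher with shMed1 #2, and 3 were lower and 5 higher with shMed1 #4, with medians of 0.02 and -0.01. Ikbke, an IkB kinase of the interferon branch, fell with shMed1 #2 (-0.64, adjusted p = 2.58e-06) and with shMed1 #4 (-0.61, adjusted p = 1.24e-05). The adaptor gene Traf5 rose with shMed1 #2 (0.49, adjusted p = 0.000111) and with shMed1 #4 (0.35, adjusted p = 0.0121). Malt1, a paracaspase gene of antigen receptor signalling, rose with shMed1 #2 (0.48, adjusted p = 0.000233) and with shMed1 #4 (0.42, adjusted p = 0.00264).

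Among other Rel, IkB and feedback genes (17 of 18 tested), 6 were lower and 1 higher with shMed1 #2, and 5 were lower and 1 higher with shMed1 #4 (medians -0.06 and 0.01). Nfkbid, another nuclear IkB gene, fell with shMed1 #2 (-1.42, adjusted p = 6.24e-05), and its log2 difference with shMed1 #4 was -0.43 (adjusted p = 0.238). It was higher with shMed1 #4 than with shMed1 #2 by 1.00 (adjusted p = 0.0146). Nlrc5, known as a regulator of MHC class I genes, fell with shMed1 #4 (-1.25, adjusted p = 9.13e-17), and its difference with shMed1 #2 was -0.13 (adjusted p = 0.249). Between the hairpins it differed in the opposite direction to Nfkbid, being lower with shMed1 #4 than with shMed1 #2 (-1.11, adjusted p = 3.41e-14). Cyld, a deubiquitinase that restrains the pathway, rose with shMed1 #2 (0.56, adjusted p = 1.85e-19) and with shMed1 #4 (0.16, adjusted p = 0.0038). Of other NF-kB targets (34 of 42 tested), 17 were lower and 9 higher with shMed1 #2, and 15 were lower and 10 higher with shMed1 #4 (medians -0.23 and -0.11). The acute phase gene Saa3 fell to 0.92, 1.16 and 1.15 CPM in shMed1 #2 and 1.75, 2.17 and 1.51 CPM in shMed1 #4, against 13.7, 18.1 and 18.2 CPM in NTC. Its log2 fold change was -3.93 with shMed1 #2 (adjusted p = 9.61e-28) and -3.20 with shMed1 #4 (adjusted p = 1.64e-24). Lcn2, which encodes lipocalin 2, fell with shMed1 #2 (-2.06, adjusted p = 1.7e-37) and with shMed1 #4 (-1.67, adjusted p = 5.5e-33). The collagenase gene Mmp13 fell with shMed1 #2 (-2.40, adjusted p = 3.25e-08) and with shMed1 #4 (-1.65, adjusted p = 2.59e-05). It was near the limit of counting, with 4 to 8 counts in shMed1 #2, 4 to 15 in shMed1 #4 and 24 to 41 in NTC. Like Cxcl12, Mmp13 passed the filter on low counts only through its NTC level, so its direction is in part set by the filter. These genes were taken from those with the largest changes, among which Mmp3 also fell (-2.91 with shMed1 #2 and -1.41 with shMed1 #4). Targets called higher are not named. Log2 fold changes in this list ran from -3.93 to 2.06 with shMed1 #2 and from -3.20 to 0.94 with shMed1 #4.

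**Figure D5:**
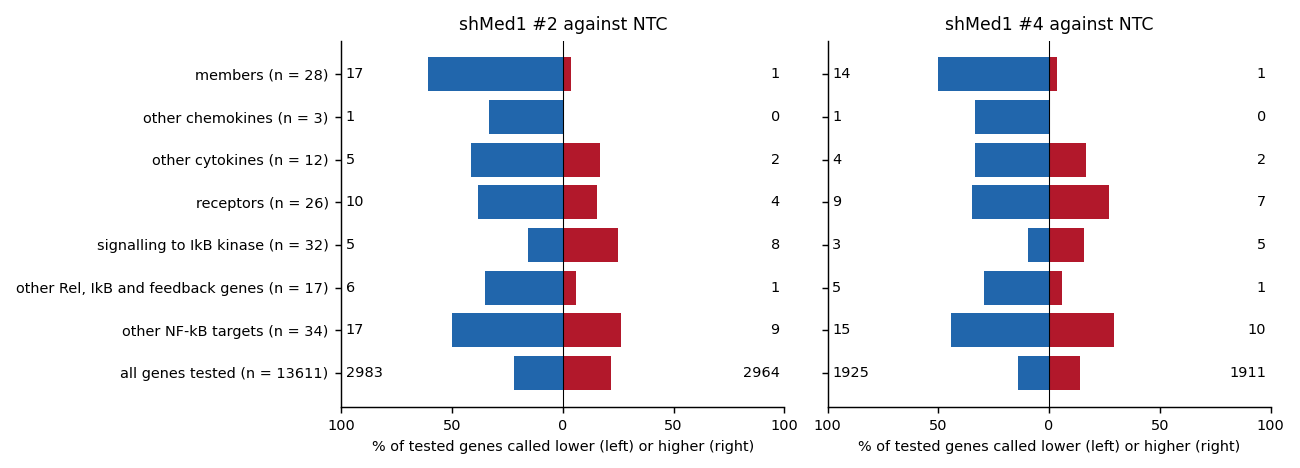
Percent of tested genes called lower (left of 0) and higher (right of 0) with each hairpin against NTC, in the 38 members (28 tested), the 6 other pathway lists and all 13611 genes tested; printed numbers are the genes called. The members show 17 lower and 1 higher with shMed1 #2 and 14 lower and 1 higher with shMed1 #4, while genes of signalling to IkB kinase show 5 and 8, and 3 and 5.

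The members were also read by the promoter windows shown above. Of the 11 members with the NF-kB consensus in a window, 9 were tested, and 4 were lower with shMed1 #2 and 4 with shMed1 #4, with median log2 fold changes of -0.46 and -0.21. Of the 15 members with a window but no match, 8 were tested, and 4 were lower with shMed1 #2 and 3 with shMed1 #4, with medians of -0.27 and -0.26. Of the 12 members with no window in the table, 11 were tested, and 9 were lower and 1 higher with shMed1 #2 and 7 lower and 1 higher with shMed1 #4, with medians of -0.59 and -0.73. Cxcl10, Bcl3 and Cxcl1 have a match and fell with either hairpin. Nfkbia has a match and fell with shMed1 #4, Tnfaip3 has one and was not called, and Cxcl12 fell and has a window without a match. For comparison, 21.9% of all genes were lower and 21.8% higher with shMed1 #2, and 14.1% lower and 14.0% higher with shMed1 #4. These are descriptions over few genes, and no difference between the groups was tested.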

How the data were processed

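RNA from 9 D2A1-d libraries (3 each of shMed1 #2, shMed1 #4 and NTC) was extracted by an automated kit that includes DNase and sequenced on a BGISEQ-500, per the labels' protocols. The authors deposited raw counts per gene. STAR, HTSeq and GRCm38 (mm10) were used, per the submitters' processing notes; neither their versions nor the annotation and strand setting are given in the sources used here. Reads of overlapping or near-identical genes therefore cannot be separated. Symbols and positions come from GENCODE M21 on GRCm38 (54587 of 55335 identifiers matched with their version, 55154 without it). No row of the count files lacks a gene.

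The replicates of a group differed beyond counting noise (chi-square over its degrees of freedom 1.51 to 2.4) and were kept as separate samples. Genes were kept by filterByExpr with the group as factor, and libraries were scaled by TMM (factors 0.982 to 1.02). The test was the edgeR quasi-likelihood test (edgeR 4.0.16 in R 4.3.3) with the robust option, fitted to all 9 libraries with a term for each group. P-values were adjusted by Benjamini-Hochberg over all 13611 genes tested, and a gene was called under an adjusted p of 0.05 in 3 comparisons: either hairpin over NTC, and shMed1 #4 over shMed1 #2. CPM use TMM-scaled library sizes. Standard errors and 95% intervals are those of the fit. Reads have no molecular identifiers, so counts are not independent molecules. The script was tested on simulated counts.

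The members and lists were chosen with earlier results of these data known. Values of every library are given for the 13 members called against NTC with an absolute log2 fold change of at least 0.5 with either hairpin. Of each other list, up to 4 genes called against NTC (mean log2 CPM of 1 or more) were eligible to be named, those with the largest change first, and some of these are left to the counts. Marker genes outside that rule, the NF-kB motif search and the choice of windows printed, Nfkbia included, were settled after values were seen. Ebi3 and Sdc4 stand in 2 lists each, and 1 of the 37 other cytokines (Il36a) matched no identifier. Sequence shared with another gene was measured as the percent of a member's 50-base transcript words found there. Promoter windows are from RefSeq (GRCm38.p6). Alternatives were other scalings, no filter or at least 50 counts in 3 libraries, DESeq2 1.42.0, leaving out the robust option, fits of only the groups compared, a replicate block, a minimum of 1.5-fold and each library left out.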

Additional observations from a re-analysis of the deposited data

How the results depend on the processing

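Of 42 member results called, 34 kept their call in every alternative that tested them, a minimum fold aside (the stricter filter tested 20 members), and no called member changed direction under another scaling. Correlations between libraries of the same number, from -0.0413 to 0.0416, gave no sign of pairing. They cannot show that equal numbers mark no shared culture, which the labels leave unsaid. Under the replicate block the count of members lower with shMed1 #4 against shMed1 #2 was 3 in place of 4, and no other count of member calls changed. The 1 member higher with shMed1 #2 against NTC became 2 with RLE scaling and with only the groups compared, through Tnfaip2, and was 1 to 2 with a library left out. The 1 higher with shMed1 #4 (Tslp) became 0 without a filter and in DESeq2, and was 0 to 1 with a library left out. The 4 lower with shMed1 #4 against shMed1 #2 became 2 without a filter and 1 in DESeq2, and 2 to 4 with a library left out. A minimum of 1.5-fold left 11 of 17 lower with shMed1 #2 and 8 of 14 lower with shMed1 #4 against NTC. Between the hairpins it left 0 of 4 lower and 3 of 5 higher. The share of all genes that met this minimum was not counted, so these counts cannot be read against a background. With a library left out, the log2 difference of shMed1 #4 against shMed1 #2 changed sign for Ccl5 (range -0.07 to 0.28), Cxcl10 (-0.21 to 0.04) and Cxcl12 (-0.06 to 0.46), none of which was called in that comparison. The cause of these changes was not tested. Library size alone as the scaling gave 3598 genes lower and 2384 higher with shMed1 #2 over all genes, in place of 2983 and 2964. Members with few counts per library had wide intervals.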
